A study of Mus musculus with 24 samples.

Results

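The guanylate-binding proteins (GBPs) and the immunity-related GTPases (IRGs) are described here through 10 mouse genes, *Gbp2*, *Gbp3*, *Gbp4*, *Gbp5*, *Gbp7*, *Gbp10*, *Iigp1*, *Igtp*, *Irgm1* and *Gm4951*, of the 24411 genes measured. They were chosen by name, with their values in the same libraries and comparisons already known, so their levels and fold changes are a description and carry no test of their own. RNA-seq of cultured primary glia was used to ask how the *SOD1G93A* transgene, a mutant human *SOD1* carried in every cell of the mouse, alters astrocytes and microglia before and after activation. Of 24 samples, 21 libraries entered the comparisons, 3 in each of 7 conditions. Quiescent microglia carrying the transgene, 3 samples, are not analysed here. Immunopanned cortical astrocytes from postnatal WT or *SOD1G93A* mice were kept in serum-free medium with HBEGF, and were either quiescent (PBS) or activated by a mixture of C1q (400 ng/mL), TNFα (30 ng/mL) and IL-1α (3 ng/mL). Postnatal microglia, isolated by Cd11b and kept in serum-free medium with TGF-β2 and IL-34, were quiescent (PBS, WT) or activated with lipopolysaccharide (LPS) at 50 ng/mL (WT and *SOD1G93A*). The labels do not say whether the 3 libraries of a condition came from separate animals or cultures, so p-values measure only the spread between these samples, which may be technical. Tables were normalized separately, so levels are set across them only after scaling to library depth.

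GBPs and IRGs are large GTPases that interferons induce, most strongly interferon-γ. They assemble on the vacuoles of intracellular pathogens and on bacterial surfaces, where GBPs open the way to inflammasome activation and IRGs disrupt the vacuole membrane. *Irgm1* and *Igtp* (Irgm3) belong to the regulatory IRGs that guard the cell's own membranes, and *Iigp1* (Irga6) is an effector IRG.

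Levels are given as RPM, the usual scaling of the reads of a gene to the total reads of its library, from whole reads recovered from the deposited values. Depth ran from 2016139 to 11570122 reads per library. Fold changes are on the scale of log2(normalized count + 1) with their standard error, from 3 against 3 libraries, and understate the change of low genes. The limits used below were 0.001 for the adjusted p of limma together with a fold change over 2, for genes with a mean normalized count of at least 10. That mean is over both groups, so a gene low in 1 group can reach it through the other group alone.

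The libraries were first compared with their labels. Summed over 10 astrocyte markers, astrocyte libraries held 4158 to 6228 RPM and microglia libraries 139 to 233. Summed over 12 microglial markers, of which none was at 0 in any astrocyte library, astrocyte libraries held 180 to 421 RPM against 4201 to 12934 in microglia libraries. Markers of T and NK cells, the usual sources of interferon-γ, were at 0 in 20 of 21 libraries, and the remaining one held 0.275 RPM. One library stood apart. In the third *SOD1G93A* LPS microglia library, 440 genes (4.05%) lay more than 2-fold below the mean of its 2 partners, against 13 to 171 genes in each of the other 20 libraries. Its correlation with those partners (Pearson r = 0.973 across 10853 genes, which are not independent replicates) was the lowest of the 21. Of the 10 GBP and IRG genes, 8 lay more than 2-fold below the partners' mean there. Its microglial markers summed to 6142 RPM, against 4683 and 4560 in the partners. For results that use *SOD1G93A* LPS microglia, values without it stand beside those with it (for the order of levels and the likeness of profiles, an alternative chosen after the data were seen), except for single levels, mean levels, the figures and the calls of edgeR and DESeq2.

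**Figure D1:**
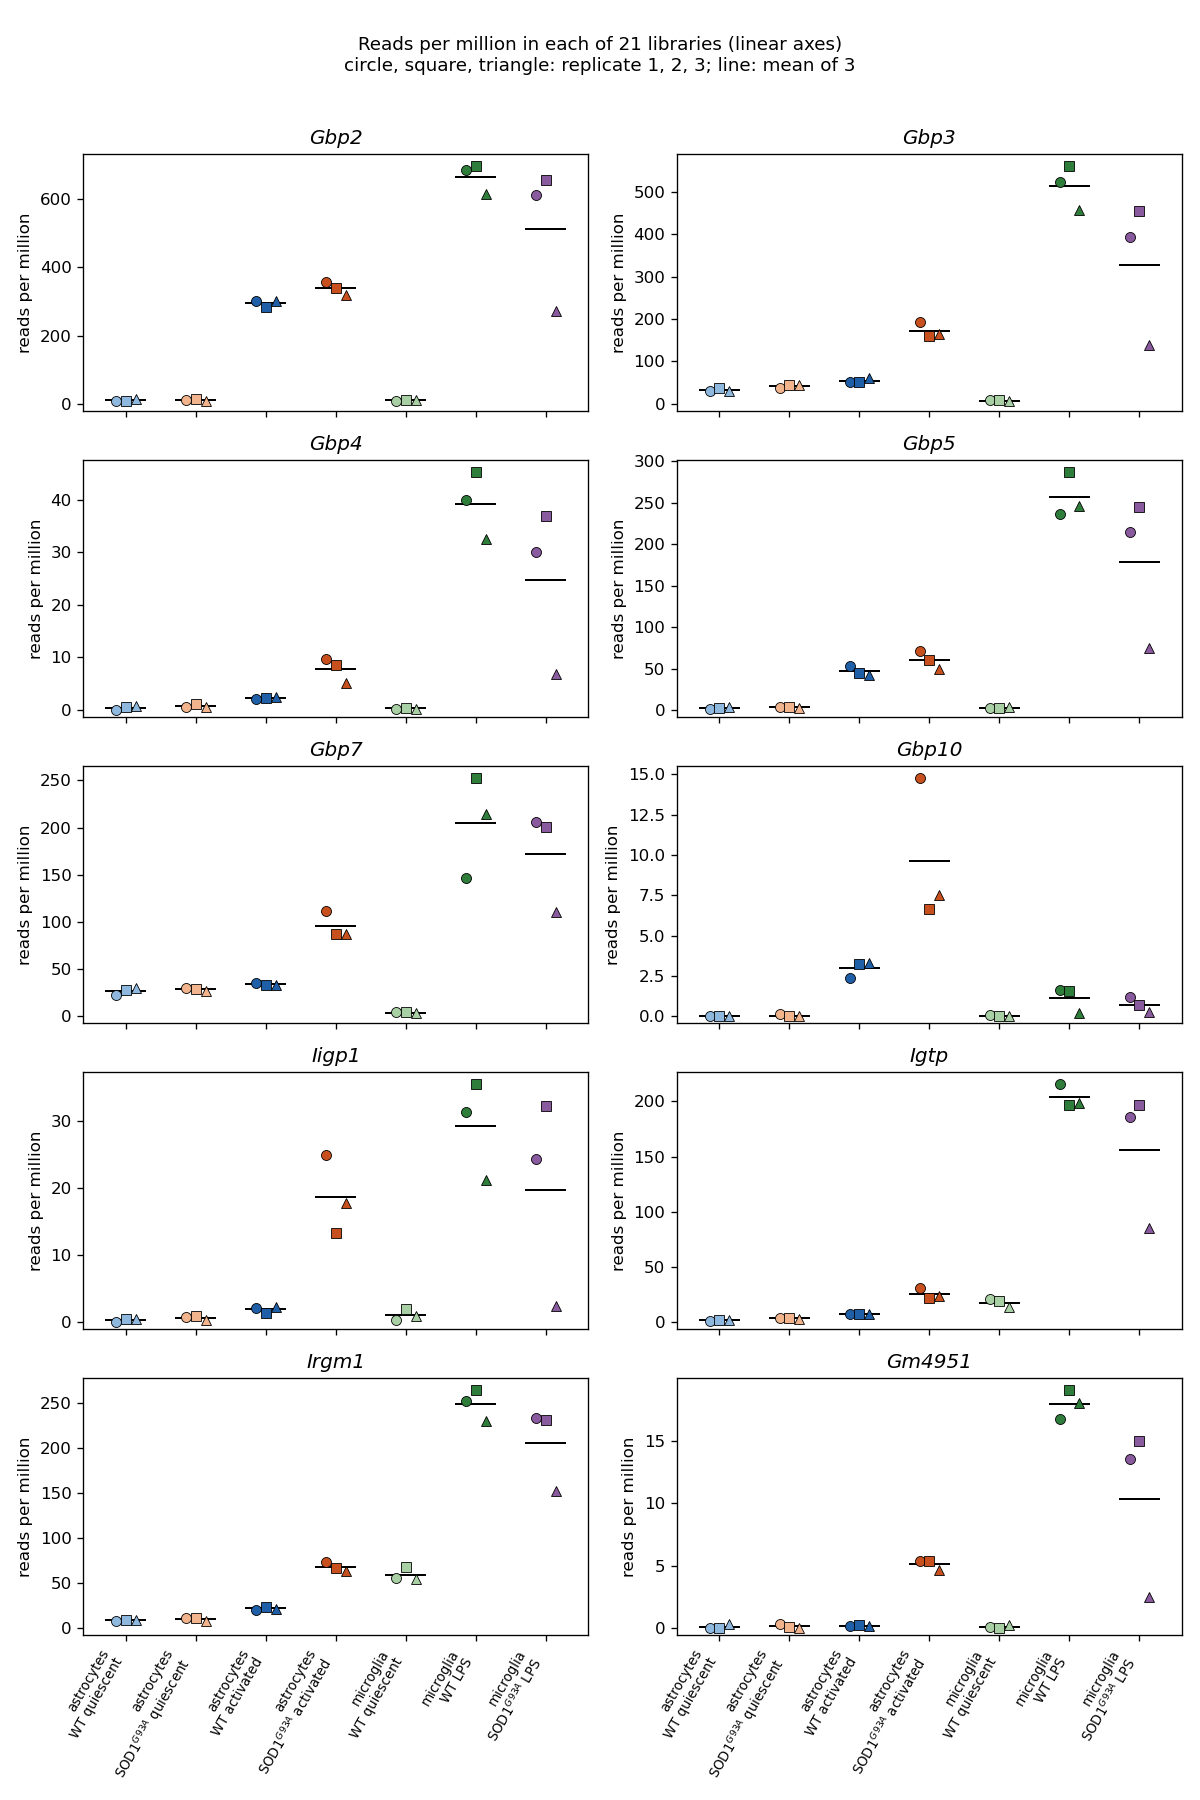
Levels in RPM (vertical axes, linear, each with its own range) of the 10 genes in the 7 conditions (horizontal axis); each point is 1 library, its shape gives the replicate, and the line is the mean of 3. LPS microglia hold the highest mean for 9 genes and activated *SOD1G93A* astrocytes for *Gbp10*; the third *SOD1G93A* LPS library is the lowest of its group for all 10 genes.

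*Gbp2*, which acts on pathogen vacuoles and bacteria and is also a marker of reactive astrocytes, measured 8.93, 9.62 and 13.3 RPM in quiescent WT astrocytes and 302, 283 and 300.2 in activated WT astrocytes. The groups were far apart, with a log2 fold change of 4.82 ± 0.15. *Gbp5*, which promotes inflammasome assembly, went from 1.49, 2.75 and 4.21 to 53.3, 44.9 and 41.7 RPM, again with no overlap (log2 fold change 4.08 ± 0.31). *Gbp3* and *Gbp7* were already present in quiescent cells. *Gbp3* measured 31.2, 38.5 and 29.8 RPM in quiescent and 51.1, 51.4 and 61.4 in activated WT astrocytes, groups that did not overlap, with a log2 fold change of 0.74 ± 0.13. *Gbp7* measured 22.3, 28.04 and 30.03 in quiescent and 35.1, 33.2 and 33.2 in activated WT astrocytes (log2 fold change 0.37 ± 0.14). Both stayed under 2-fold.

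Among the IRGs, *Igtp* measured 1.49, 1.92 and 2.05 RPM in quiescent and 7.53, 7.39 and 7.65 in activated WT astrocytes (log2 fold change 1.96 ± 0.27). *Irgm1* measured 8.43, 9.07 and 9.07 against 20.8, 24.1 and 21.2 (log2 fold change 1.32 ± 0.15). Neither pair of groups overlapped. The other 4 genes lay under the minimum mean and were not tested. *Gbp10* had no read in the 3 quiescent WT libraries and 53 reads in the 3 activated ones, at least 14.998-fold higher against a floor of 3 reads over the group. *Iigp1* had 7 and 33 reads, a ratio of 4.002 (95% exact interval 1.74 to 10.7, for counting error only), and *Gbp4* had 9 and 40 reads, a ratio of 3.77 (1.80 to 8.84). *Gm4951*, an IRG gene on chromosome 18 as *Iigp1* is, had 3 and 4 reads, a ratio of 1.13 (0.191 to 7.73), so no difference was detectable at this depth. Of the 6 genes tested, 4 were past the limits and higher (*Gbp2*, *Gbp5*, *Igtp* and *Irgm1*), beside 6% of all 12336 genes tested, and 3 without any 1 of the 3 activated WT libraries, when *Igtp* was no longer past them. These values chose the genes, and nothing is read from the count. *Igtp*, with 3, 7 and 19 reads in the quiescent WT libraries, reached the minimum mean only through the activated libraries. Its call rests partly on that filter. Markers of other cells moved in the same comparison, and their part was not tested. Oligodendrocyte lineage markers summed to 2778 to 2956 RPM in quiescent and 1043 to 1104 in activated WT libraries, a fall carried by *Olig1* and *Olig2*, while *Mbp* (log2 fold change 0.56 ± 0.20) and *Cspg4* (0.21 ± 0.19) did not fall. Of endothelial markers *Flt1* alone was tested, past the limits at 7.94 to 10.4 and 135 to 150 RPM, while *Pecam1* was also higher, at 0, 0.275 and 0.216 RPM in quiescent and 1.58, 1.92 and 1.57 in activated libraries, *Kdr* did not rise, *Cdh5* had no read in activated WT libraries and *Cldn5* none in any library. Markers of pericytes and fibroblasts, with *Dcn* and *Lum* past the limits, summed to 7.44 to 13.5 and 43.8 to 52.9. Both genes reached the minimum mean only through the activated libraries. The neuronal marker *Tubb3* was also past the limits and higher, and the astrocyte markers *Hepacam* and *Aldoc* lower. These markers were named after their values were seen.

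Activated astrocytes of the 2 genotypes were compared next, with the activated WT libraries shared with the comparison above. *Iigp1* measured 2.18, 1.33 and 2.26 RPM in activated WT and 25.0, 13.2 and 17.8 in activated *SOD1G93A* astrocytes, with a log2 fold change of 3.15 ± 0.28. *Gm4951* measured 0.198, 0.295 and 0.174 against 5.37, 5.34 and 4.68, or 4 reads against 51 in all, a ratio of 22.9 (95% exact interval 8.41 to 87.2). The 2 groups were apart for both genes. *Gbp3* measured 51.1, 51.4 and 61.4 in WT and 192, 161 and 166 in *SOD1G93A* cells (log2 fold change 1.70 ± 0.09). *Gbp7* measured 35.1, 33.2 and 33.2 against 112, 86.8 and 87.1 (log2 fold change 1.52 ± 0.10). *Igtp* measured 7.53, 7.39 and 7.65 against 31.4, 22.1 and 23.4 (log2 fold change 1.76 ± 0.17). For these 3 genes every *SOD1G93A* library lay above every WT library. The same held for *Irgm1*, at 20.8, 24.1 and 21.2 against 73.6, 67.2 and 63.2 RPM (log2 fold change 1.66 ± 0.10).

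*Gbp4* and *Gbp10* were low in both genotypes. *Gbp4* measured 2.18, 2.22 and 2.44 RPM in activated WT and 9.67, 8.65 and 5.15 in activated *SOD1G93A* astrocytes (log2 fold change 1.67 ± 0.30). *Gbp10* measured 2.38, 3.25 and 3.30 against 14.8, 6.62 and 7.49 (log2 fold change 1.58 ± 0.30), highest in the first *SOD1G93A* library. Neither was past the limits in the main test, though both were with edgeR, with DESeq2 and with the replicate number as a block. *Gbp2* differed little, at 302, 283 and 300.2 RPM in WT and 357, 338 and 318 in *SOD1G93A* cells (log2 fold change 0.24 ± 0.06). *Gbp5* measured 53.3, 44.9 and 41.7 against 71.5, 60.8 and 50.1, and here the groups overlapped (log2 fold change 0.41 ± 0.12). In all, 6 of 10 genes were past the limits and higher (*Gbp3*, *Gbp7*, *Iigp1*, *Igtp*, *Irgm1* and *Gm4951*), beside 0.521% of all genes tested (63 of 12098). Their median log2 fold change was 1.67, and that of all genes tested was close to 0. The genes were chosen with this comparison in view, so the excess over the background is no test. *Gm4951*, with 1, 2 and 1 reads in the activated WT libraries, and *Iigp1*, with 11, 9 and 13, reached the minimum mean only through the *SOD1G93A* group. Their calls rest partly on that filter. With replicate 1 or replicate 2 of activated *SOD1G93A* astrocytes left out, 9 of the genes were tested and 5 were past the limits. With replicate 3 left out, 9 were tested and 6 were past them, with *Gbp4* now among the 6. *Gm4951* was the gene not tested in each of these fits, so its call was lost in all of them.

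**Figure D2:**
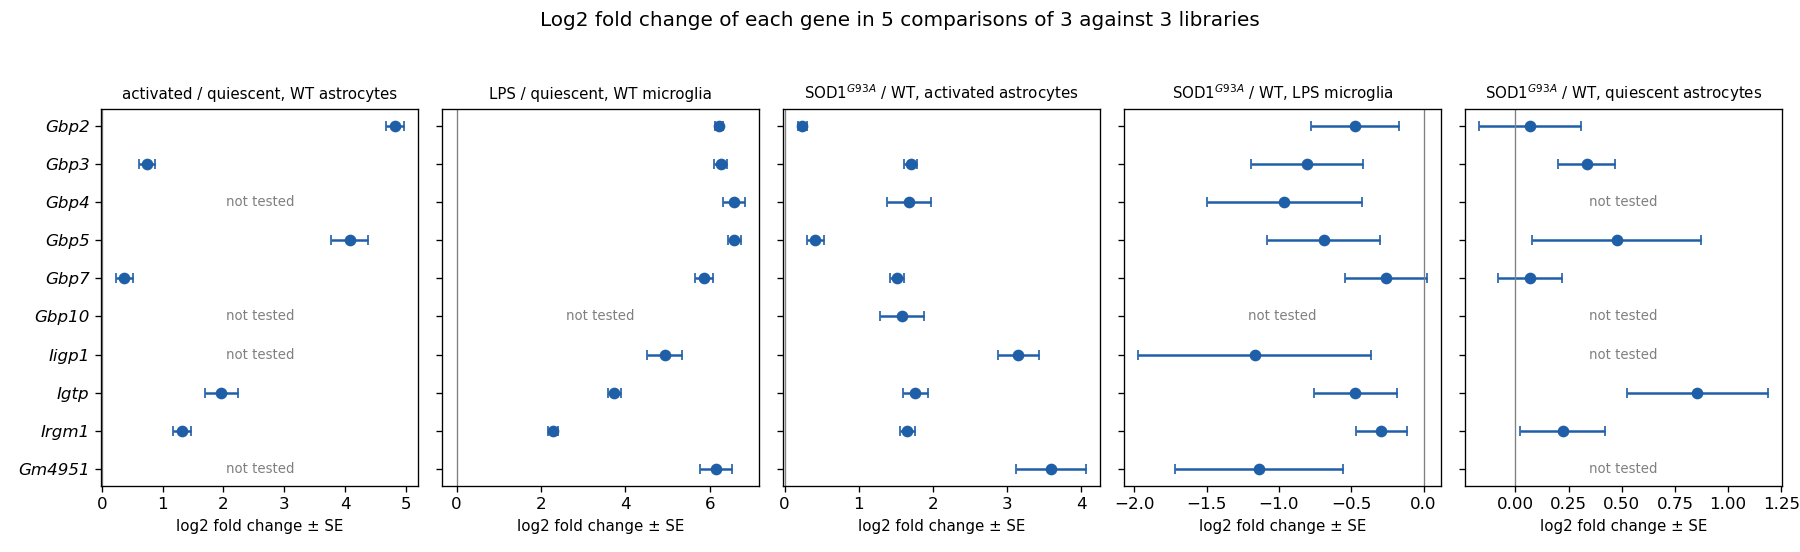
Log2 fold change (horizontal axes, each with its own range) of the 10 genes (vertical axis) in 5 comparisons; points are estimates from 3 against 3 libraries and bars are 1 SE. In activated astrocytes *Gbp2* (0.24) and *Gbp5* (0.41) lie nearest 0, and *Iigp1* (3.15) and *Gm4951* (3.59) farthest from it; genes under the minimum mean are marked as not tested.

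Several other measures moved with genotype in the same libraries. *Kdm5d*, a gene of the Y chromosome, measured 36.3, 35.8 and 28.5 RPM in activated WT and 12.9, 11.96 and 10.3 in activated *SOD1G93A* astrocytes. *Xist*, the RNA of the inactive X chromosome, measured 524, 492 and 428 against 1347, 1065 and 833. All 5 sex genes listed were past the limits here, 4 lower and 1 higher, and the genotype and the sex of the cells cannot be told apart in these groups. Microglial markers summed to 214, 353 and 191 RPM in activated WT and 269, 189 and 204 in activated *SOD1G93A* astrocytes, values that overlapped. Single markers differed without overlap, in both directions: 7 of 9 astrocyte markers tested, 3 of 7 of the oligodendrocyte lineage, the 1 endothelial, 2 of 4 of pericytes and fibroblasts, 1 of 2 neuronal and 0 of 11 microglial. The share of all genes without overlap is not given here, so nothing is read from these counts. No gene of the 7 marker lists was past the limits. Their part in the GBP and IRG levels was not tested, and in bulk RNA more cells of a type and more RNA per cell cannot be told apart.

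In quiescent astrocytes the 2 genotypes were compared in the same way. *Igtp* measured 1.49, 1.92 and 2.05 RPM in WT and 3.67, 3.45 and 3.34 in *SOD1G93A* cells, without overlap, and had a log2 fold change of 0.86 ± 0.33. *Gbp3* measured 31.2, 38.5 and 29.8 against 37.2, 45.0 and 45.3, with overlap (log2 fold change 0.33 ± 0.13). The other 4 genes tested had log2 fold changes of 0.07 ± 0.24 (*Gbp2*), 0.48 ± 0.40 (*Gbp5*), 0.07 ± 0.15 (*Gbp7*) and 0.22 ± 0.20 (*Irgm1*). Of the 6 genes tested, 0 were past the limits, beside 0% of the 12271 genes tested. With limma, 1068 of all genes had an unadjusted p under 0.05 (503 to 1539 with 1 library left out, 520 with the replicate block), and DESeq2 called 7 genes and edgeR 0. *Kdm5d* was lower and *Xist* higher in quiescent *SOD1G93A* astrocytes too, at means of 17.98 against 42.3 and 2366 against 599.6 RPM. Microglial markers summed to 180, 249 and 322 RPM in WT and 399, 421 and 281 in *SOD1G93A* cells, with overlap, and all 11 tested had a positive log2 fold change (median 0.57). Single markers differed without overlap, in both directions: 2 of 10 astrocyte markers tested, 2 of 11 microglial, 3 of 7 of the oligodendrocyte lineage, the 1 endothelial, the 1 of pericytes and fibroblasts and 1 of 2 neuronal. Nothing is read from these counts of markers, since the share of all genes without overlap is not given here. No marker was past the limits, and their part was not tested.

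Whether the genotype difference itself depended on the state of the astrocytes was fitted over all 12 astrocyte libraries. The difference of the *SOD1G93A* effect, activated minus quiescent, was 1.37 ± 0.17 on the log2 scale for *Gbp3*, 1.45 ± 0.19 for *Gbp7* and 1.43 ± 0.21 for *Irgm1*. It was 0.17 ± 0.23 for *Gbp2* and -0.06 ± 0.38 for *Gbp5*, close to 0 beside their errors. It was 0.91 ± 0.31 for *Igtp*, and, with the widest errors of the 9, 2.40 ± 0.73 for *Iigp1*, 0.88 ± 0.74 for *Gbp4* and 1.39 ± 0.73 for *Gbp10*. None of the 9 genes tested was past the limits with limma, beside 0% of 12269 genes, of which 1018 had an unadjusted p under 0.05 (738 to 1474 with 1 library left out). The count depended on the tool and the libraries. It was 2 of these genes among 4 of all genes with edgeR, 3 among 22 with DESeq2, 2 among 6 without the first quiescent WT library and 1 among 1 without the third. *Gbp3* was among them in each of these cases.

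In WT microglia, LPS-treated libraries lay above quiescent ones for each of these genes. *Gbp2* measured 9.85, 10.2 and 10.7 RPM in quiescent and 685, 698 and 615 in LPS-treated WT cells (log2 fold change 6.21 ± 0.09). *Gbp3* measured 8.07, 9.02 and 6.05 against 523, 562 and 458 (log2 fold change 6.25 ± 0.15). *Gbp5* measured 3.05, 2.35 and 3.46 against 237, 288 and 246 (log2 fold change 6.58 ± 0.15). The groups were far apart in each case. *Gbp7* measured 4.13, 4.31 and 3.03 against 147, 253 and 215, with the first LPS library the lowest of its group (log2 fold change 5.87 ± 0.21). *Iigp1*, with 15 reads in quiescent and 534 in LPS-treated libraries, had a ratio of 39.1 (95% exact interval 23.5 to 70.3). *Gbp4* had 5 and 707 reads, a ratio of 155 (66.2 to 480), and *Gm4951* 3 and 317 reads, a ratio of 116 (39.3 to 566).

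The regulatory IRGs were present in quiescent microglia and moved less. *Irgm1* measured 55.7, 68.6 and 54.3 RPM in quiescent and 252, 265 and 229.8 in LPS-treated cells (log2 fold change 2.28 ± 0.12). *Igtp* measured 20.7, 19.2 and 13.5 against 216, 197 and 198 (log2 fold change 3.74 ± 0.15). *Gbp10* had 1 read in quiescent and 22 in LPS-treated libraries, a ratio of 24.2 (3.90 to 997), and alone of the 10 was not tested. All 9 genes tested were past the limits and higher, beside 10.2% of all genes tested, a count that the choice of genes fixed in part. *Iigp1*, *Gbp4* and *Gm4951* reached the minimum mean only through the LPS-treated libraries, where they are high. Their calls rest partly on that filter, and nothing is read from the count. All 5 sex genes were past the limits in this comparison, 4 lower and 1 higher, with *Kdm5d* at a mean of 8.19 RPM in quiescent and 0.682 in LPS-treated libraries and *Xist* at 83.1 and 150, so the treatment and the sex of the cells cannot be told apart in these groups. Microglial markers fell, from sums of 12181 to 12934 RPM in quiescent to 4201 to 4466 in LPS-treated libraries, and oligodendrocyte lineage markers, with *Cspg4* the most abundant, with sums of 1317 to 1359 in quiescent and 103 to 110 in LPS-treated ones. Of other markers, *Slc1a2*, *Gja1*, *Dcn*, *Pecam1* and *Kdr* were past the limits and higher, and *Flt1* and *Mbp* lower, named after their values were seen. *Dcn* and *Pecam1* reached the minimum mean only through the LPS-treated libraries. The part of all these markers was not tested.

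LPS-treated microglia of the 2 genotypes overlapped for 7 of the 10 genes, with or without the library that stood apart. The exceptions both ways were *Gbp3*, *Igtp* and *Gm4951*. The share of all genes without overlap is not given here, so nothing is read from this count. *Iigp1* measured 31.3, 35.5 and 21.2 RPM in WT and 24.3, 32.2 and 2.47 in *SOD1G93A* cells, the last value being that library. Its log2 fold change was -1.17 ± 0.81 with all libraries and -0.01 without it. *Gbp3* measured 523, 562 and 458 against 393, 454 and 139, with log2 fold changes of -0.81 ± 0.39 and -0.26. *Gbp2* measured 685, 698 and 615 against 612, 655 and 271, with log2 fold changes of -0.47 ± 0.30 and -0.05. Over the 9 genes tested the median log2 fold change was -0.69 with the library and -0.07 without it. None of the 9 was past the limits with limma, with or without it, beside 0% of all 10679 genes tested, of which 930 had an unadjusted p under 0.05 (581 without it, and up to 1084 with another library left out). DESeq2 called 2 of all genes and edgeR 0, none of them among the 10. Microglial markers differed without overlap, with sums of 4201 to 4466 RPM in WT and 4683, 4560 and 6142 in *SOD1G93A* cells, and so did *Cspg4* alone of 4 oligodendrocyte lineage markers tested (61.3, 66.9 and 68.5 against 112, 107 and 212), the last value of each being the library that stood apart. No marker was past the limits, and their part was not tested.

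Between genes, levels were compared as RPKM, with the length taken from annotated exons. In LPS-treated WT microglia *Gbp2* was highest at 265 ± 17.8 (SD, n = 3), then *Gbp3* at 157 ± 16.0 and *Igtp* at 101 ± 5.18. *Irgm1* at 42.8 ± 3.05, *Gbp5* at 38.7 ± 4.07 and *Gbp7* at 36.5 ± 9.58 lay within each other's spread. *Gm4951*, *Gbp4* and *Iigp1* lay between 5.04 and 6.77, and *Gbp10* at 0.291. In activated WT astrocytes *Gbp2* again stood above the rest, at 117 ± 4.18, against 16.7 ± 1.79 for *Gbp3*, the next. *Gbp10* was the gene whose order of conditions was turned round: it was highest in activated *SOD1G93A* astrocytes (9.63 ± 4.48 RPM), next in activated WT astrocytes (2.98 ± 0.521), and lower in LPS-treated WT microglia (1.13 ± 0.792). The other 9 had their highest mean in LPS-treated WT microglia and, after the 2 LPS groups, their next in activated *SOD1G93A* astrocytes, with or without the library that stood apart. With that library, the LPS-treated *SOD1G93A* microglia themselves overlapped activated *SOD1G93A* astrocytes for 6 of the 9, and *Iigp1* did so without it too. For *Iigp1* LPS-treated WT microglia (31.3, 35.5 and 21.2 RPM) also overlapped activated *SOD1G93A* astrocytes (25.0, 13.2 and 17.8). Its first place is therefore not settled. For *Gbp2*, *Gbp4*, *Gbp5*, *Gbp7* and *Irgm1* the 2 LPS groups overlapped, so first place between those groups is not settled either. With TMM scaling they overlapped for *Gbp3* and *Igtp* too. The next place is not settled for *Gbp5*, *Irgm1* and *Igtp*. For *Gbp5* activated *SOD1G93A* astrocytes (60.8 RPM) overlapped activated WT astrocytes (46.6). For *Irgm1* activated *SOD1G93A* astrocytes (68.0) overlapped quiescent WT microglia (59.6), and with TMM scaling the order turned (57.1 against 71.4). For *Igtp* TMM scaling brought the same groups to 21.5 and 21.4.

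Some of these genes share sequence, which limits how far reads can be assigned between them. Of the distinct 50-base stretches of annotated *Gbp10* transcripts, 84.1% also occur in transcripts of other genes, 73.3% in *Gbp6* alone, so *Gbp10* values are uncertain. The share was 12.7% for *Gbp7* and 11.8% for *Igtp* (all with *Irgm2*, which overlaps it on chromosome 11), 7.70% for *Gbp4*, and 0.310% to 4.62% for the other 6. *Gbp10* also shares 1792 exon bases with the gene *Gm43302* on the same strand, *Igtp* 162 with *Irgm2*, and *Gbp4* 61 with *Gbp8* and 60 with *Gbp9*. *Gbp2*, *Gbp3*, *Gbp5* and *Gbp7* lie on chromosome 3, *Gbp4* and *Gbp10* on chromosome 5, *Igtp* and *Irgm1* on chromosome 11, and *Iigp1* and *Gm4951* on chromosome 18.

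Further genes of the 2 families were counted from a list of 19, of which 18 were in the tables. As for the 10, the share of all genes past the limits and higher was 6% in activated WT astrocytes, 10.2% in LPS-treated WT microglia and 0.521% by genotype in activated astrocytes, and the median over all genes was close to 0 in each; the counts of this and the next lists stand beside these shares, and none is a test. In activated WT against quiescent WT astrocytes 2 of the 4 tested rose (*Gbp6*, log2 fold change 4.70 ± 0.32, limma adjusted p 7.8e-07; *Gbp9*, 2.51 ± 0.23, adjusted p 7.1e-06), and 0 fell (median of the 4, 1.91). *Irgm2* (1.31 ± 0.33) and *Irgq* (0.17 ± 0.10) were not past the limits. In activated *SOD1G93A* against WT astrocytes 3 of 5 rose, namely *Gbp9* (1.88 ± 0.13, limma adjusted p 6.6e-09), *Irgm2* (1.64 ± 0.22, adjusted p 4.9e-05) and *Gbp6* (1.07 ± 0.09, adjusted p 4.0e-08). *F830016B08Rik* (3.00 ± 0.54) and *Irgq* (-0.15 ± 0.08) were not past the limits. In LPS-treated against quiescent WT microglia 8 of 12 rose, *Gbp6*, *Gbp9*, *Irgm2*, *Ifi47*, *Tgtp2*, *Gm12250*, *Gm5431* and *F830016B08Rik*, and *9930111J21Rik2* fell, while *9930111J21Rik1* was not past the limits (0.10 ± 0.42). *Tgtp2* and *F830016B08Rik*, with 6 and 3 reads in quiescent libraries, reached the minimum mean only through the LPS group. Their calls rest partly on that filter. *Irgq* measured 49.99 to 97.9 RPM in all 21 libraries. *Gbp2b*, *Gbp8*, *Gbp11*, *Tgtp1*, *Gm4841*, *Gm12185* and *Irgc1* reached at most 3.64 RPM in any library.

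Upstream of these genes lie the interferons and the signalling genes of their receptors. *Ifng* had no read in any library, and *Ifnb1* at most 0.259 RPM. Of 25 signalling genes tested in activated WT against quiescent WT astrocytes 10 rose (beside 6% of all genes) and 0 fell, with a median of 0.76, led by *Relb* (log2 fold change 2.92 ± 0.14), *Irf1* (2.45 ± 0.17) and *Nfkb1* (2.30 ± 0.10). *Ifngr2* (1.63 ± 0.11) and *Irf9* (1.51 ± 0.17) were among them. *Stat2* (0.49 ± 0.11) was not past the limits. In activated *SOD1G93A* against WT astrocytes 6 of 25 rose (beside 0.521%) and 0 fell. *Usp18* (3.01 ± 0.17) was the highest, and *Nlrc5* (1.85 ± 0.26), *Irf9* (1.45 ± 0.10) and *Stat2* (1.02 ± 0.15) were among them. *Irf1* was not past them (0.31 ± 0.09), nor were *Ifngr1* (-0.07 ± 0.08), *Ifngr2* (-0.01 ± 0.08) and *Irf8* (-0.37 ± 0.21). The list's median was -0.02, and that of all genes was close to 0.

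In LPS-treated against quiescent WT microglia 15 of 27 signalling genes rose, beside 10.2% of all genes and with a median of 1.199, led by *Socs3* (5.92 ± 0.08), *Irf7* (5.51 ± 0.08) and *Batf2* (5.10 ± 0.37), with *Socs1* (5.09 ± 0.38), *Stat2* (3.07 ± 0.09), *Nlrc5* (3.57 ± 0.11), *Irf1* (2.42 ± 0.15) and *Irf9* (1.15 ± 0.09) among them. *Batf2* (4, 3 and 2 reads in quiescent libraries) and *Socs1* (5, 2 and 1) reached the minimum mean only through the LPS group. *Ifngr1* fell by 1.27 on the log2 scale. *Irf8* (-0.90 ± 0.07) was not past the 2-fold limit. In LPS-treated microglia of the 2 genotypes, and in quiescent astrocytes, 0 of 27 and 0 of 24 were past the limits; without the library that stood apart 0 of all 10665 genes were in the former.

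Of inflammasome genes, *Casp4* (log2 fold change 4.73 ± 0.35) and *Casp1* (3.17 ± 0.28), which GBPs help to activate, rose in activated WT astrocytes, 2 of 5 tested, and 0 of 5 were past the limits by genotype in activated cells. In LPS-treated WT microglia 5 of 8 rose, led by *Il1b* (7.33 ± 0.11), *Casp4* (4.03 ± 0.14) and *Nlrp3* (3.02 ± 0.09), and *Pycard* (-1.34 ± 0.20) fell, named here after its value was seen. In astrocytes *Casp4* (1, 7 and 11 reads in quiescent WT libraries) and *Casp1* (2, 5 and 13) reached the minimum mean only through the activated group. Their calls there rest partly on that filter. Of 15 autophagy and vacuole genes, which IRGs and GBPs work with at the vacuole, 2 rose in LPS-treated WT microglia (*Trim21*, 2.75 ± 0.10, and *Sqstm1*, 1.84 ± 0.07), a share near that of all genes, and 0 were past the limits in astrocytes. Of other dynamin-related GTPases, *Mx1* (6.05 ± 0.13), *Mx2* (5.21 ± 0.24) and *Gvin1* (3.39 ± 0.58) rose in LPS-treated microglia, 3 of 12, *Dnm1* (2.26 ± 0.20) in activated WT astrocytes, 1 of 12 and near the share of all genes, and *Mx2* (3.01 ± 0.41) by genotype in activated astrocytes, 1 of 14. By genotype *Mx2*, with 3, 19 and 5 reads in activated WT libraries, reached the minimum mean only through the *SOD1G93A* group, so that call rests partly on the filter.

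Across the 7 condition means, the genes outside the 10 whose log2 level was most like their mean standardized profile, among 9915 genes, were *Gbp9* (Pearson r = 0.995), the chemokine *Cxcl10* (0.990), *Gpx3* (0.976), *Psmd10* (0.970) and *Fgl2* (0.969). The same 5 led in the same order without the library that stood apart. These are descriptions over 7 points that share libraries. Gene by gene, the most like were *Tmem39a* for *Gbp2*, *Met* for *Gbp5*, *Slc9a8* for *Gbp3*, *Gm13889* for *Gbp7*, *Fgl2* for *Gbp4*, *Ppp1ca* for *Gbp10*, *Ifi44* for *Iigp1*, *Ddx58* for *Igtp*, *Rtp4* for *Irgm1* and *Mx2* for *Gm4951* (r from 0.965 to 0.998). Without that library the gene most like *Gbp2* became *Gbp6*, and those for *Gbp7*, *Gbp10* and *Iigp1* became *Pttg1*, *Parp3* and *Gpx3*. Among the 10 themselves, pairwise r had a median of 0.866 and a lowest value of 0.238 (0.873 and 0.260 without it).

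The sequence before their starts was read, from RefSeq entries (GRCm38.p6) that matched 6 of the 10: *Gbp2*, *Gbp3*, *Gbp5*, *Gbp7*, *Igtp* and *Irgm1*. The 250 bases before each start were searched on both strands for GAAA followed by any 2 bases and GAAA again, a core of the interferon-stimulated response element (ISRE), and for TTCNNNGAA, the gamma-activated sequence (GAS). The first was found for all 6 genes, beside 2.98% of 32851 promoters of the same length and 3.46% of 27025 genes with such promoters. The second was found for 3 (*Gbp5*, *Gbp7* and *Igtp*), beside 7.02% of those promoters and 8.13% of those genes. The 2 motifs did not overlap in any of the 6. A second entry of *Gbp3* held neither. Other GBP and IRG genes with an entry were searched in the same way. *Irgm2*, *Tgtp1*, *Tgtp2*, *Gm12250* and *Gm12185* held both motifs, and *Gbp2b* only the first. *Ifi47*, *Gm5431*, *9930111J21Rik1*, *9930111J21Rik2* and *Irgq* held neither. A match is a description of letters, not a binding site. Starts differ between annotations: in GENCODE M21 the window of *Irgm1* is annotated exon over all its 250 bases, and those of *Gbp2*, *Gbp3* (first entry) and *Gbp5* hold 61, 18 and 34 exon bases. The windows of *Gbp7* (chr3:142530086-142530335, + strand) and *Igtp* (chr11:58199306-58199555, + strand) hold no annotated exon and are printed whole, since both motifs occur in each; capitals mark the motifs, 5′ to 3′.
Gbp7: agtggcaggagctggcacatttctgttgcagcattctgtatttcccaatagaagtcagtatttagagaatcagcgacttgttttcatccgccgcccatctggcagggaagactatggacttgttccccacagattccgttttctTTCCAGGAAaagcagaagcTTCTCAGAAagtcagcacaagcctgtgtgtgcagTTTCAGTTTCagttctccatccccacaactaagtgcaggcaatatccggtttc
Igtp: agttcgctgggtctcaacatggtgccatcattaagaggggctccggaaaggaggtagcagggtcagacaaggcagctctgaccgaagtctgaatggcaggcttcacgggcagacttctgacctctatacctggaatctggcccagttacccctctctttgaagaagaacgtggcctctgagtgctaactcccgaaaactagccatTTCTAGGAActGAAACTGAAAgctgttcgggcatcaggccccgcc

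For the other 4 genes, 30 bases around the ISRE core are printed, with the core in capitals, so that their letters can be compared. The stretches lie at chr3:142620594-142620623 (*Gbp2*, + strand), chr3:142496759-142496788 (*Gbp5*, + strand), chr3:142559989-142560018 (*Gbp3*, + strand) and chr11:48871431-48871460 (*Irgm1*, - strand). *Gbp3* and *Irgm1* each hold 2 overlapping cores, and *Gbp2* and *Gbp5* 1.
Gbp2: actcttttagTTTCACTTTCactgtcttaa
Gbp5: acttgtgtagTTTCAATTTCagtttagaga
Gbp3: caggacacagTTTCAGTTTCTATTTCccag
Irgm1: cctgtttcaaGAAATAGAAACCGAAActga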

How the data were processed

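The authors aligned paired reads of strand-specific libraries to mm10 with STAR, quantified genes by RSEM and normalized each pair of conditions in DESeq2 (tool names per the labels). The deposited tables, 1 for each of 6 comparisons, hold normalized counts, a signal that the authors made by dividing each library's reads by a size factor; the further columns, with their means, fold changes, standard errors, test scores and p-values, were not used. Whole reads were recovered for 100% of 878796 values (relative tolerance 1e-06). Comparisons were fitted with limma 3.58.1 (intensity trend, pseudocount 1, Benjamini-Hochberg) in R 4.3.3 within each table, and the interaction on recovered reads of 12 libraries scaled together. edgeR 4.0.16 (quasi-likelihood), DESeq2 1.42.0, TMM, a pseudocount of 5, no minimum mean, an adjusted p under 0.05 at any fold, a block for the replicate number, and fits without 1 library at a time were alternatives. The limma, edgeR and DESeq2 fits were tested on simulated data. Levels, intervals and motifs were computed with Python 3.11.15, pandas 2.3.3 and scipy 1.17.1, and exon lengths come from GENCODE M21. Intervals and floors cover counting error only.

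The members and the gene lists were chosen with earlier results of these data known. Named are the 10 genes, the other GBP and IRG genes in the tables, 11 fixed signalling genes except as said below, the 3 genes past the limits with the largest change in each list and comparison, the genes most like the 10, *Xist* and *Kdm5d*. The motifs were chosen after the values were seen. Results on 2 of the genes to be named are not reported here.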

Additional observations from a re-analysis of the deposited data

How the results depend on the processing

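The counts of GBP and IRG genes past the limits stayed within 1.5 times their main value under every alternative in WT astrocytes, WT microglia, LPS-treated microglia and quiescent astrocytes. In activated astrocytes by genotype the count of 6 became 10 at an adjusted p under 0.05 with any fold. That looser threshold also gave 4722 of all genes in WT astrocytes, 6185 in WT microglia, 879 in activated astrocytes by genotype, 1 in LPS-treated microglia, 7 in quiescent astrocytes and 34 (3 of the 10) for the difference between states. For that difference a pseudocount of 5 gave 3 genes (1 of the 10), edgeR 4 (2) and DESeq2 22 (3), and leaving out 1 library gave 0 to 6 (0 to 2). DESeq2 gave 2 in LPS-treated microglia and 7 in quiescent astrocytes. The cause was not tested.

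The replicate numbers did not pair the libraries, since the correlation of deviations was not over 0.1 for every pair in any comparison, and not every library correlated best with its own number. With the replicate block 1423, 2201, 100, 0 and 0 genes were past the limits in WT astrocytes, WT microglia, activated astrocytes by genotype, LPS-treated microglia and quiescent astrocytes. Of the log2 fold changes of single genes, 462 of the values under alternatives moved by less than 1 SD between replicates and 15 by more, 9 of them under a pseudocount of 5 and 6 with edgeR or DESeq2. Of 70 mean levels, 38 moved by more than 1 SD with TMM scaling, lower in astrocytes and higher in microglia (*Gbp2*, 243 in activated WT astrocytes and 890 in LPS-treated WT microglia). With TMM *Irgm1* was no longer next highest in activated *SOD1G93A* astrocytes after the LPS groups, and the LPS groups of the 2 genotypes overlapped for 9 genes in place of 7. Depth limits *Gbp4*, *Gbp10*, *Iigp1* and *Gm4951* in quiescent cells, where a whole condition holds at most 16 reads of each.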
